A study of Mus musculus with 2 samples.

Results

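The antitrypsin genes Serpina1a, Serpina1b, Serpina1c, Serpina1d and Serpina1e and the antichymotrypsin genes Serpina3k, Serpina3m and Serpina3n were followed in the liver of young mice. They are 8 of the 26442 genes of the deposited tables and were chosen by name, each through 1 RefSeq accession. Earlier results of these data were known at that choice. Liver of BALB/c mice was sequenced at day 11 after birth, with 1 library from mice labelled SRSF2-/- and 1 library from WT mice, and the comparison asks how this genotype changes the liver transcriptome. SRSF2 encodes a serine/arginine-rich splicing factor, and the submitters describe its deletion as liver specific. The sources used here do not give the deleting transgene, the part of the gene removed or the number of animals behind each library. With 1 library per genotype there is no replicate check, so no p-value is given and every interval covers counting error only.

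Serpins are protease inhibitors that work as bait. An exposed reactive loop is cut by the target protease at a residue called P1, and the inhibitor then changes shape and traps the enzyme, so the loop largely sets which protease is inhibited. In the human, alpha-1-antitrypsin is a major protein of plasma, made chiefly by hepatocytes, and protects the lung from neutrophil elastase. Mice carry several copies of the antitrypsin gene and of the antichymotrypsin gene side by side on chromosome 12. Contrapsin, the product of Serpina3k, inhibits trypsin-like proteases, and Serpina3n is induced in the acute phase response and inhibits granzyme B. These proteins leave the hepatocyte through the secretory pathway.

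The copies differ more in the loop that meets the protease than over the rest of their coding sequence. The 72 bases that encode the reactive loop, starting at its conserved hinge, are shown for the 5 antitrypsins because they tell the copies apart. Capitals mark the bases at which the 5 are not all alike. All lie on the minus strand of chromosome 12, in the last of 5 exons of the GENCODE transcript matched to the counted accession. The GRCm38 positions are chr12:103853759-103853830 for Serpina1a, chr12:103728326-103728397 for Serpina1b, chr12:103895096-103895167 for Serpina1c, chr12:103763764-103763835 for Serpina1d and chr12:103947102-103947173 for Serpina1e.
Serpina1a: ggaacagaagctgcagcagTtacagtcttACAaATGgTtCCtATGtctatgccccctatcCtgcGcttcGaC
Serpina1b: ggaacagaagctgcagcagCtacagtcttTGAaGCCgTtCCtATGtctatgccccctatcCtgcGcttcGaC
Serpina1c: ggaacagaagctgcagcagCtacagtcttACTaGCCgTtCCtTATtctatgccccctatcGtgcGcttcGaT
Serpina1d: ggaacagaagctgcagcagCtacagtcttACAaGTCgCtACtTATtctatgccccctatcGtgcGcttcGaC
Serpina1e: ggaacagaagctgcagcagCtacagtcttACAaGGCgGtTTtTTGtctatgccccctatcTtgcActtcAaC

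Of the 72 loop bases, 17 varied among the 5 antitrypsins. The pairs differed at 6.94% to 15.3% of loop bases, against 0.769% to 3.16% of the other coding bases. The P1 codon, counted 14 codons on from the codon that opens the stretch as in the human protein, was ATG in Serpina1a and Serpina1b, TAT in Serpina1c and Serpina1d, and TTG in Serpina1e. The same stretch of the 3 antichymotrypsins, set side by side without gaps, varied at 34 of 72 bases. They lie on the plus strand of chromosome 12, also in the last of 5 exons, at chr12:104345269-104345340 for Serpina3k, chr12:104393769-104393840 for Serpina3m and chr12:104413448-104413519 for Serpina3n in GRCm38. Capitals mark the bases at which these 3 are not all alike.
Serpina3k: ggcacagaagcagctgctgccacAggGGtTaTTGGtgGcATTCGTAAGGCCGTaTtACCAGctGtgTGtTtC
Serpina3m: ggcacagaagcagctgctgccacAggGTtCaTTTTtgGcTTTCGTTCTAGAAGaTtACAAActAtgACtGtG
Serpina3n: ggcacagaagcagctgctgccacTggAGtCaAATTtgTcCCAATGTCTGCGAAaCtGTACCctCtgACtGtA

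By the same count the P1 codon was CGT in Serpina3k and Serpina3m and ATG in Serpina3n. Over their whole coding sequence the antitrypsins were 96.3% to 98.5% identical in pairs, the antichymotrypsins 82.6% to 90.8%, and members of different families 55.6% to 58.5%. This bears on every count that follows, because a short read from a shared stretch cannot be placed on 1 copy. The sources used here give neither how the authors counted such reads nor the read length. In windows of 50 bases, 19.1% of the Serpina1a transcript and 25.8% of the Serpina1c transcript matched no other gene, against 52.9% for Serpina1b, 49.1% for Serpina1d and 62.1% for Serpina1e. The antichymotrypsins were easier to tell apart, with 86.0% for Serpina3k, 80.9% for Serpina3m and 93.1% for Serpina3n. The windowed transcripts are not always as long as the counted ones. For Serpina1a, the WT reads and FPKM imply a length near 2296 bases, against 1360 in the windowed transcript. For Serpina1b these lengths are 1687 and 1394. Counted bases outside the windowed transcripts were not assessed. These sequences are of the C57BL/6J reference genome, while the mice were BALB/c, whose own copies were not analysed here. A family's sum of reads does not depend on how a read was divided among the summed copies. This holds provided that the read was counted once and within the sum. Reads shared with Serpina3 genes outside the antichymotrypsin sum could change that sum. A family's sum of FPKM depends to some extent on the division, because the copies differ in the length the authors divided by, so both are given.

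**Figure D1:**
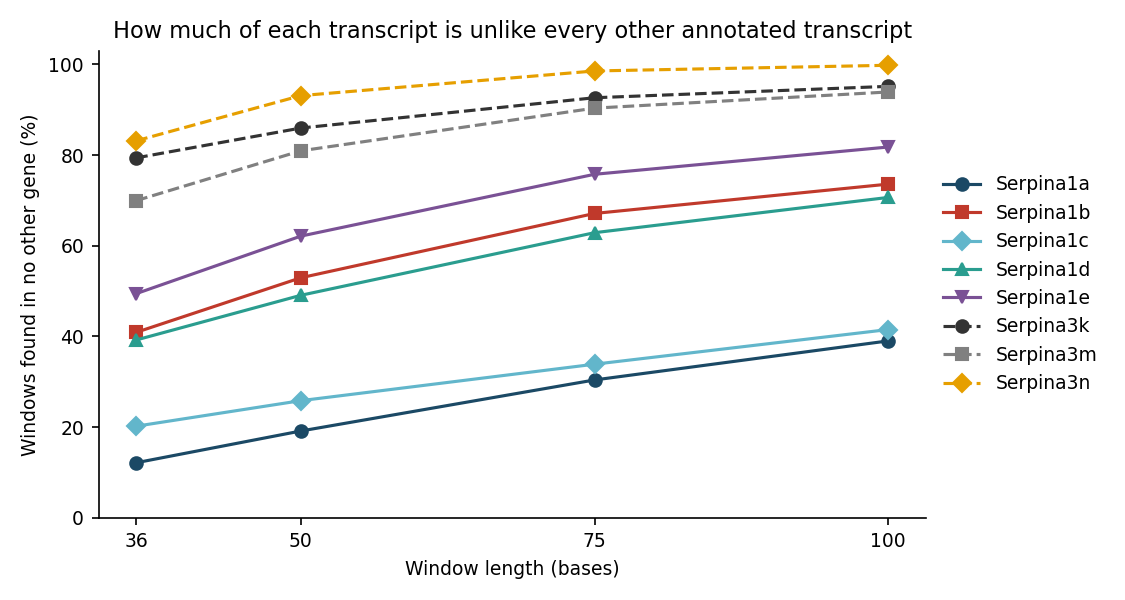
The share of windows of a transcript (y axis, percent) found in no other annotated gene is plotted against the window length (x axis, bases) for the 8 genes, with solid lines for the antitrypsins and dashed lines for the antichymotrypsins. Serpina1a and Serpina1c lie lowest at every length and reach 39.0% and 41.5% at 100 bases, while Serpina3n reaches 99.8%.

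The libraries held 22111605 reads for SRSF2-/- and 22407743 for WT. Srsf2 itself stood at 11.8 FPKM in the SRSF2-/- and 27.9 FPKM in the WT library, where FPKM is the authors' read count scaled by transcript length and library size. Alb, the albumin gene, stood at 25492 FPKM in SRSF2-/- and 50399 FPKM in WT, and 12 hepatocyte markers summed to 66717 FPKM in SRSF2-/- and 134017 FPKM in WT, all of them detected in both libraries. Of the markers of other liver cells, 5 of 8 stellate and fibroblast, 4 of 6 bile duct and 2 of 6 macrophage markers were at least 2-fold higher in SRSF2-/-, 3 of 7 neutrophil markers were lower, and 0 of 7 endothelial markers differed that far, where 19.2% of all genes tested were higher and 2.95% lower by that much. With the all-gene median set to 0, the counts became 1 stellate and fibroblast, 2 bile duct and 0 macrophage markers higher and 7 of 7 neutrophil markers lower. On that scale 5.67% of all genes tested were higher and 6.66% lower. The SRSF2-/- library also held transcripts of other tissues, with a summed level over 8 exocrine pancreas markers of 568 FPKM against 1.13 FPKM in WT and over 7 skeletal muscle markers of 69.2 FPKM against 0.195 FPKM in WT (2 and 3 of these markers had 0 reads in WT). Xist had 6 reads in SRSF2-/- and 13004 in WT, and the Y-linked Ddx3y had 859 reads in SRSF2-/- and 0 in WT, so the libraries also differed in sex-linked transcripts. The part of these differences in the results below was not tested.

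The 5 antitrypsins together stood at 5993 FPKM in the SRSF2-/- library and 12881 FPKM in the WT library, 2.15-fold lower in SRSF2-/- (2.14 to 2.16). Intervals come from the exact 95% interval of the read ratio, which for sums was scaled to the ratio of summed FPKM. The 5 antitrypsins took 244085 reads in SRSF2-/- and 537135 in WT, which is 1.10% of all SRSF2-/- reads and 2.40% of all WT reads. The 3 antichymotrypsins together stood at 1009.96 FPKM in SRSF2-/- and 1849.6 FPKM in WT, 1.83-fold lower (1.81 to 1.85). Their reads were 49182 in SRSF2-/- (0.222% of the library) and 96967 in WT (0.433%). Scaled by library size, the log2 ratio was -1.12 for the antitrypsin and -0.96 for the antichymotrypsin reads, beside -1.10 and -0.87 in FPKM. In liver tissue, fewer hepatocytes and less of a transcript per hepatocyte cannot be told apart. Within both families the copies differed widely, from Serpina1e at the low end to Serpina3k, which was higher in SRSF2-/-.

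Serpina1b was the most abundant member in both libraries and the antitrypsin with the smallest difference. It stood at 2932 FPKM in SRSF2-/- and 3740 FPKM in WT, 1.28-fold lower (1.27 to 1.29). Serpina1a stood at 1384 FPKM in SRSF2-/- and 3284 FPKM in WT, 2.37-fold lower (2.35 to 2.39). These 2 copies share the P1 codon ATG, yet their ratios lie far apart for their counting error.

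Serpina1c stood at 1085 FPKM in SRSF2-/- and 3530 FPKM in WT, 3.25-fold lower (3.22 to 3.29). Serpina1d, which shares its P1 codon TAT, stood at 499 FPKM in SRSF2-/- and 1795 FPKM in WT, 3.60-fold lower (3.54 to 3.65). Serpina1e, the least abundant antitrypsin in both libraries, stood at 92.6 FPKM in SRSF2-/- and 531 FPKM in WT, 5.74-fold lower (5.53 to 5.96). It was the one member past 4-fold, a size at which 0.753% of all genes tested were lower and 2.76% higher in SRSF2-/-.

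Grouped by P1 codon, the copies with ATG summed to 4316 FPKM in SRSF2-/- and 7024 FPKM in WT, 1.63-fold lower (1.62 to 1.64). Those with TAT summed to 1584 FPKM in SRSF2-/- and 5325 FPKM in WT, 3.36-fold lower (3.33 to 3.39). The ATG copies thus held 72.0% of the antitrypsin FPKM in SRSF2-/- and 54.5% in WT. The groups hold 2 genes each, and Serpina1a, the other ATG copy, gave 23.1% of the family FPKM in SRSF2-/- and 25.5% in WT, so the gain in share lay in Serpina1b.

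**Figure D2:**
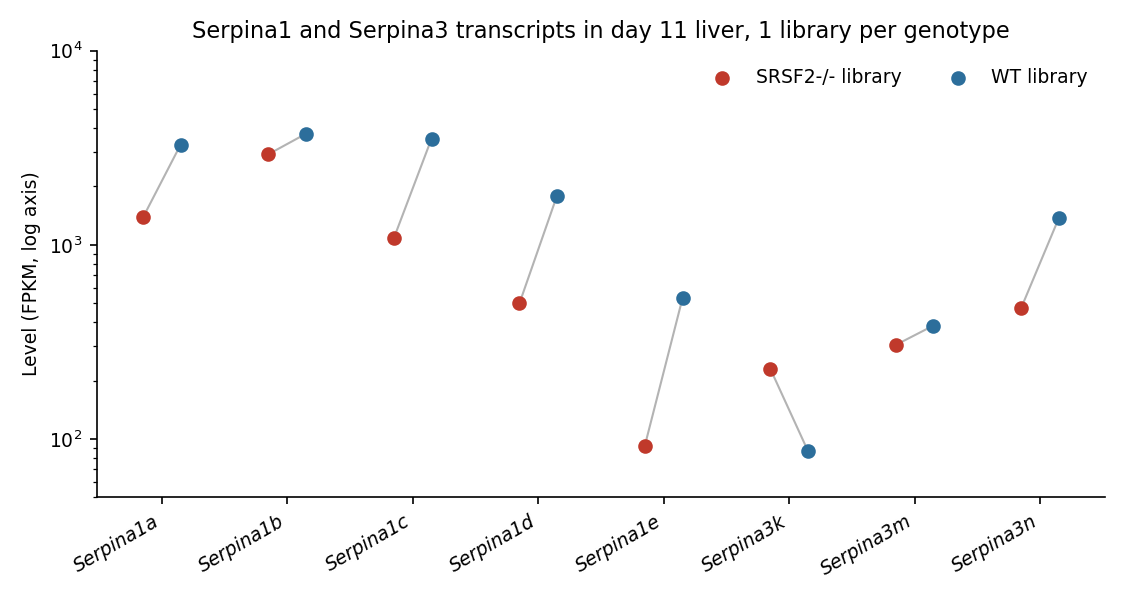
Each gene's level (y axis, FPKM, log axis) is shown in the SRSF2-/- library (red, left) and the WT library (blue, right), with a line joining the 2 values of a gene. The points for SRSF2-/- lie below those for WT for 7 of the 8 genes, and Serpina3k is the exception.

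Serpina3n was the most abundant antichymotrypsin in both libraries. It stood at 475 FPKM in SRSF2-/- and 1379 FPKM in WT, 2.90-fold lower (2.86 to 2.94). Serpina3m stood at 305 FPKM in SRSF2-/- and 384 FPKM in WT, 1.26-fold lower (1.23 to 1.29). Serpina3k, the contrapsin gene, went the other way, at 229.75 FPKM in SRSF2-/- and 86.7 FPKM in WT, a ratio of 2.65 (2.55 to 2.75). It had the lowest level of the 8 in WT and the 7th in SRSF2-/-.

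On the scale of log2(FPKM + 1), 5 of the 8 members were at least 2-fold lower in SRSF2-/-, 1 was at least 2-fold higher and 2, Serpina1b and Serpina3m, were neither. Of all 12477 genes with at least 1 FPKM in either library, 2.95% were at least 2-fold lower and 19.2% at least 2-fold higher (368 and 2395 genes). Among the 43 genes with at least 1000 FPKM in WT, a closer match to these abundant transcripts, 37.2% were at least 2-fold lower and 0 were at least 2-fold higher. Serpina1a, Serpina1b, Serpina1c, Serpina1d and Serpina3n belong to those 43, and 4 of these 5 were at least 2-fold lower. The 43 were picked by their WT level alone, which favours genes that are lower in SRSF2-/- over genes that are higher. Their shares and median are therefore a description and not a neutral background. At 1.5-fold the members' counts stayed at 5 lower and 1 higher, beside 5.51% and 47.4% of all genes. The median log2 ratio was -1.39 over the 8 members, -0.85 over the 43 abundant genes and 0.55 over all genes tested.

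Because the median of all genes lay above 0, the members stood lower still against it. Relative to that median the same count gave 5 members at least 2-fold lower and 0 higher, beside 6.66% and 5.67% of all genes (831 and 708). Serpina3k then had a log2 ratio of 0.84, short of 2-fold but still positive. Serpina1b and Serpina3m stood at -0.90 and -0.88 on that scale. The centred log2 ratio was -1.66 for the antitrypsin sum and -1.43 for the antichymotrypsin sum.

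**Figure D3:**
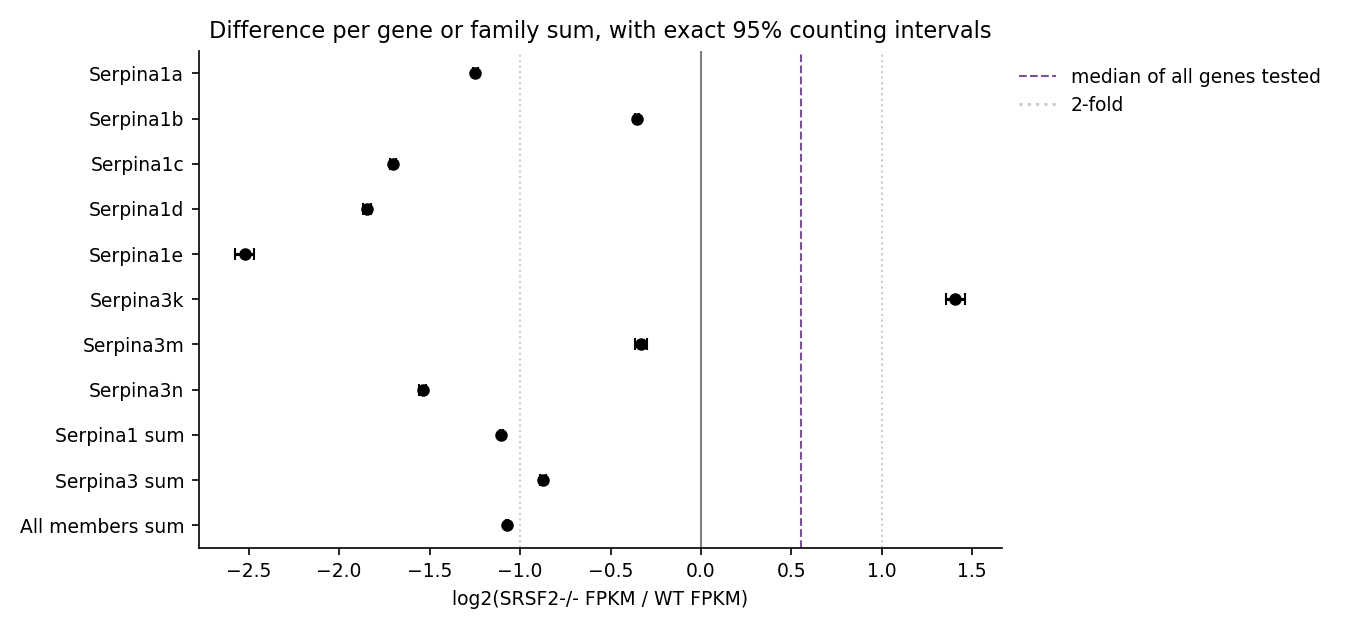
The log2 ratio of SRSF2-/- over WT FPKM (x axis) is plotted for each gene and for the family sums, with exact 95% counting intervals as bars. Values run from Serpina1e, 5.74-fold lower, to Serpina3k at a ratio of 2.65, and the dashed line is the median of all genes tested, 0.55 on the scale of log2(FPKM + 1).

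The make-up of each family therefore differed between the libraries. Serpina1b gave 48.9% of the antitrypsin FPKM in SRSF2-/- and 29.0% in WT. Serpina1c gave 18.1% in SRSF2-/- and 27.4% in WT, and Serpina1e gave 1.54% in SRSF2-/- and 4.13% in WT. In reads, which no transcript length enters, Serpina1b had 44.9% of the family in SRSF2-/- (44.7 to 45.1) and 26.3% in WT (26.2 to 26.4). Serpina1b was 31.7 times as abundant as Serpina1e in SRSF2-/- and 7.04 times in WT.

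Of the difference of 6887 FPKM in the antitrypsin sum, Serpina1c carried 35.5%, Serpina1a 27.6%, Serpina1d 18.8%, Serpina1b 11.7% and Serpina1e 6.37%. The copy with the largest fold thus carried the smallest part. Without Serpina1b, the other 4 antitrypsins summed to 3062 FPKM in SRSF2-/- and 9141 FPKM in WT, 2.99-fold lower.

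Among the antichymotrypsins, Serpina3k gave 22.7% of the family FPKM in SRSF2-/- and 4.69% in WT. Serpina3m gave 30.2% in SRSF2-/- and 20.8% in WT. Serpina3n gave 47.0% in SRSF2-/- and 74.5% in WT. Serpina3n was 2.07 times as abundant as Serpina3k in SRSF2-/- and 15.9 times in WT.

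**Figure D4:**
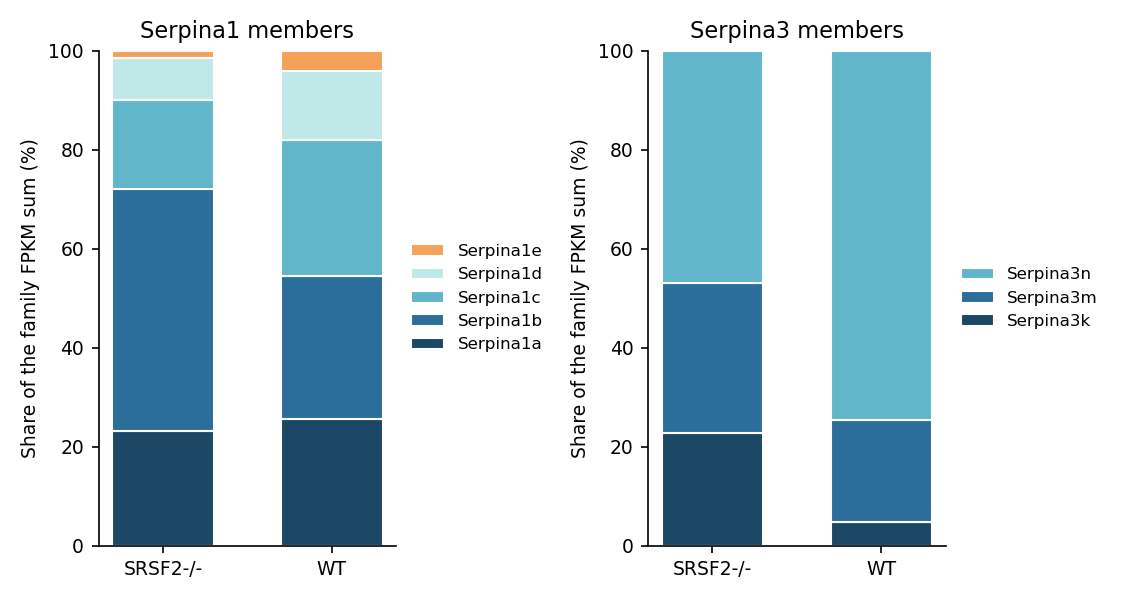
Stacked bars give each gene's share of its family's FPKM sum (y axis, percent) in the SRSF2-/- library (left bar) and the WT library (right bar), antitrypsins on the left and antichymotrypsins on the right. Serpina1b takes 48.9% of the antitrypsins in SRSF2-/- and 29.0% in WT, and Serpina3k takes 22.7% of the antichymotrypsins in SRSF2-/- and 4.69% in WT.

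By FPKM the order in SRSF2-/- was Serpina1b, Serpina1a, Serpina1c, Serpina1d, Serpina3n, Serpina3m, Serpina3k and Serpina1e. In WT it was Serpina1b, Serpina1c, Serpina1a, Serpina1d, Serpina3n, Serpina1e, Serpina3m and Serpina3k. No neighbours in either order had overlapping counting intervals, the closest in SRSF2-/- being Serpina1d at 492 to 506 FPKM and Serpina3n at 469 to 481 FPKM. The spread between animals is unknown, so the order may not hold in other livers. The place of Serpina1a also rests on the length the authors gave it. Per 1000 reads it had 19.7 FPKM in SRSF2-/- and 19.4 in WT, against 26.8 and 26.5 for Serpina1b. In reads it led the WT library with 168950, ahead of 141378 for Serpina1b and 133341 for Serpina1c, while in SRSF2-/- it had 70370, below 109508 for Serpina1b and above 40511 for Serpina1c.

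The promoters of the 5 antitrypsins share a stretch of 55 bases. The 76 bases shown lie upstream of the annotated start, end with the longest stretch that all 5 share there and are taken from RefSeq, build GRCm38.p6, minus strand of chromosome 12. They are given because copies with unequal ratios share most of them. The window was placed by the shared stretch, so its likeness does not describe the whole promoter. Capitals mark the bases at which the 5 are not all alike. The positions are chr12:103863625-103863700 for Serpina1a, chr12:103738200-103738275 for Serpina1b, chr12:103904962-103905037 for Serpina1c, chr12:103773634-103773709 for Serpina1d and chr12:103956960-103957035 for Serpina1e.
Serpina1a: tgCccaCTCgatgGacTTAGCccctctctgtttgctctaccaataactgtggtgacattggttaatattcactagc
Serpina1b: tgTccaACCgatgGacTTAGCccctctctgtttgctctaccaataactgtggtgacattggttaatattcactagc
Serpina1c: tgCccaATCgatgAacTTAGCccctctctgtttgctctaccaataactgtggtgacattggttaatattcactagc
Serpina1d: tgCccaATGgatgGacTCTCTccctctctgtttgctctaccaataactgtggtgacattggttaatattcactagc
Serpina1e: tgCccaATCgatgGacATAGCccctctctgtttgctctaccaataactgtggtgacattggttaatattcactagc

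Of these 76 bases, 10 varied among the copies. Serpina1b differed from Serpina1e, the copy farthest from it in ratio, at 3 of them, as from Serpina1a and Serpina1c, and from Serpina1d at 7. The last 55 bases were the same in all 5 by the choice of the window. The window ends 62 bases before the annotated start of Serpina1e and 0 to 11 bases before the other starts. On either strand, the STAT3 motif TTCNNNGAA occurred in 8.47% of 27025 promoters of 300 bases, 1 per gene, and in 0 of the 6 member promoters in the table. The C/EBP motif TTGCNNAA occurred in 10.8% of all promoters and in those of Serpina1a, Serpina1b, Serpina1d and Serpina1e. Because these copies share promoter sequence, their matches need not be separate occurrences and are not comparable with the share over all promoters. Serpina3n has a promoter in the table and held neither motif. A match describes letters and not a bound site.

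The other clade A serpins lie around the members on chromosome 12. RefSeq lists 28 Serpina genes there, 23 of which are in the tables, and 14 of these, the 8 members included, had at least 1 FPKM in either library. Both genes beside the antitrypsin copies with that level were much lower in SRSF2-/-. Serpina11 stood at 21.2 FPKM in SRSF2-/- and 155 FPKM in WT, 7.33-fold lower. Serpina6, which encodes the corticosteroid carrier of plasma, stood at 13.3 FPKM in SRSF2-/- and 208 FPKM in WT. Serpina10, the protein Z-dependent inhibitor of coagulation, lay closer to Serpina1b in ratio, at 80.8 FPKM in SRSF2-/- and 106.5 FPKM in WT.

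The other Serpina3 genes at that level were low in WT. Serpina3f stood at 11.9 FPKM in SRSF2-/- and 2.64 FPKM in WT, a ratio of 4.50 (3.79 to 5.40). Serpina3c stood at 1.17 FPKM (52 reads) in SRSF2-/- and 0.0781 FPKM (3 reads) in WT, and Serpina3i stood at 1.18 FPKM (68 reads) in SRSF2-/- and 0.105 FPKM (6 reads) in WT. These 3 and Serpina3k, their neighbour in the order of tested genes, all had the higher value in SRSF2-/-, while Serpina3m and Serpina3n beyond it had the lower. Serpina7, the thyroxine carrier on the X chromosome, stood at 101 FPKM in SRSF2-/- and 42.1 FPKM in WT. Over the 7 other clade A serpins tested, 2 were at least 2-fold lower and 3 higher, with a median log2 ratio of 0.98, beside 2.95% and 19.2% of all genes. Relative to the all-gene median, 2 were lower and 1 higher, with a median of 0.43, beside 6.66% and 5.67% of all genes.

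**Figure D5:**
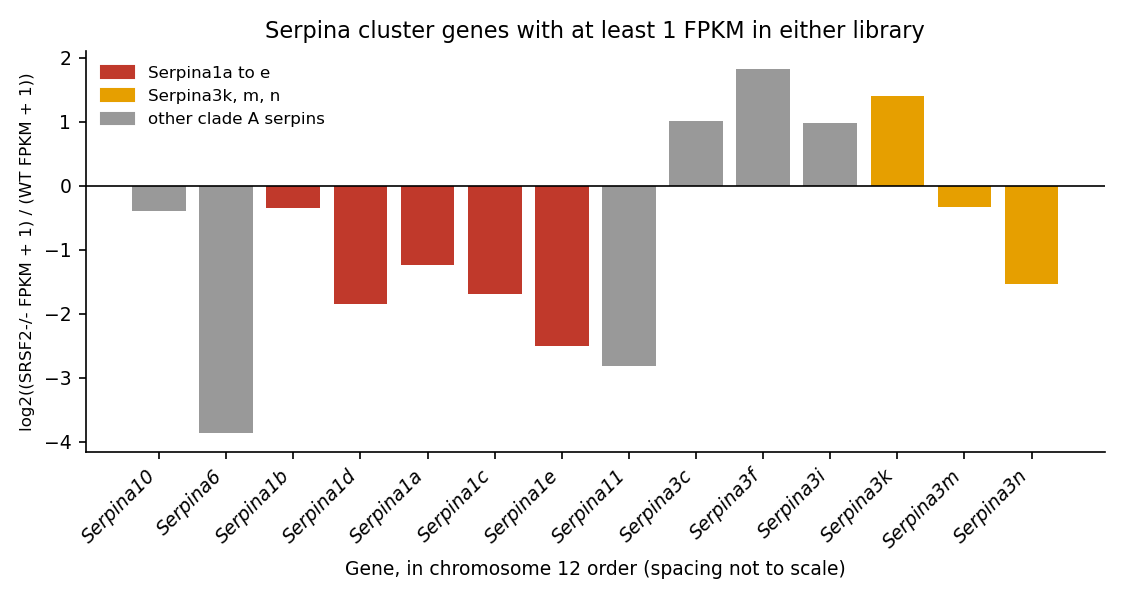
The log2 ratio of SRSF2-/- over WT, with 1 FPKM added to each value (y axis), is shown for the 14 Serpina genes of chromosome 12 with at least 1 FPKM in either library, in their order along the chromosome (x axis, not to scale). The antitrypsins (red), Serpina6 and Serpina11 lie below 0, and Serpina3c, Serpina3f, Serpina3i and Serpina3k lie above 0.

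Serpins of other clades include inhibitors of coagulation and of proteases inside cells. Of 13 tested, 1 was at least 2-fold lower, 6 were higher and 6 neither, beside 2.95% of all genes lower and 19.2% higher. Their median log2 ratio was 0.85. Relative to the all-gene median, 4 were lower and 2 higher (median 0.30), beside 6.66% and 5.67% of all genes. The one that was lower, Serpinf1 (pigment epithelium-derived factor), stood at 107 FPKM in SRSF2-/- and 291 FPKM in WT. The antithrombin gene Serpinc1, the most abundant, stood at 691 FPKM in SRSF2-/- and 950 FPKM in WT. On the scale of log2(FPKM + 1), the intracellular inhibitors Serpinb6a and Serpinb6b had the highest ratios. Serpinb6a stood at 83.6 FPKM in SRSF2-/- and 12.5 FPKM in WT, and Serpinb6b at 5.91 FPKM in SRSF2-/- and 0.875 FPKM in WT. Serpini2 had 40 reads in SRSF2-/- and 0 in WT, so its plain ratio has no finite value.

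The proteases that serpins of this clade can meet include blood, neutrophil and digestive enzymes. Of 14 tested, 3 were at least 2-fold lower, 8 higher and 3 neither, beside 2.95% of all genes lower and 19.2% higher. Relative to the all-gene median 4 were lower and 8 higher, beside 6.66% and 5.67% of all genes. The higher ones with the greatest ratios were Ctrb1, Prss2 and Cela3b, at 235, 55.8 and 47.1 FPKM in SRSF2-/- and 0.170, 0.0913 and 0.126 FPKM in WT. These 3 are also on the exocrine pancreas marker list described above. Of the other 5 that were higher, all named after their values were seen, Cela1, Cela2a and Ctrl also encode digestive enzymes of the pancreas. They stood at 42.4, 130.6 and 34.8 FPKM in SRSF2-/- and 2.66, 4.59 and 0.127 FPKM in WT. Klk1 and Mmp12, the rest of these 5, stood at 16.8 and 9.04 FPKM in SRSF2-/- and 0.215 and 0.0836 FPKM in WT. Proc, which encodes protein C and was among the 3 lower genes, stood at 76.1 FPKM in SRSF2-/- and 160.3 FPKM in WT. Prtn3 and Klkb1, the rest of these 3, were named after their values were seen. They stood at 1.53 and 11.9 FPKM in SRSF2-/- and 24.2 and 41.1 FPKM in WT. Neutrophil elastase itself, Elane, stood at 0.912 FPKM in SRSF2-/- and 2.54 FPKM in WT. On the scale of log2(FPKM + 1) it was at least 2-fold lower only relative to the all-gene median. It was named after its values were seen, and 7 neutrophil markers had a median log2 ratio of -0.91.

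Of 21 known regulators of these genes tested, 0 were at least 2-fold lower, 4 were higher and 17 neither, a share of higher genes near the 19.2% of all genes. The median log2 ratio was 0.27 and turned to -0.28 relative to the all-gene median. After that centring 3 were lower and 1 higher, beside 6.66% and 5.67% of all genes. Foxa2, a liver transcription factor named after its values were seen, lay just short of 2-fold on that scale before centring, with a log2 ratio of -0.99 at 5.04 FPKM in SRSF2-/- and 11.0 FPKM in WT. Like Foxa2, Cebpa and Lifr were lower relative to the all-gene median, and they too were named after their values were seen. Cebpa stood at 42.7 FPKM in SRSF2-/- and 83.9 FPKM in WT, and Lifr at 8.33 FPKM in SRSF2-/- and 15.4 FPKM in WT. Hnf4a, a master regulator of hepatocyte genes, stood at 93.2 FPKM in SRSF2-/- and 90.6 FPKM in WT, a ratio of 1.03. Cebpd, an acute phase transcription factor, stood at 26.8 FPKM in SRSF2-/- and 4.59 FPKM in WT, a ratio of 5.85 (5.14 to 6.67). The interleukin-6 family receptor genes Osmr and Il6st stood at 3.79 and 54.7 FPKM in SRSF2-/- and 1.08 and 24.7 FPKM in WT.

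Genes that fold, export and degrade antitrypsin in the endoplasmic reticulum mostly stayed within 2-fold. Of 26 tested, 0 were at least 2-fold lower, 1 was higher and 25 neither, beside 2.95% of all genes lower and 19.2% higher. The counts were the same relative to the all-gene median, where 6.66% of all genes were lower and 5.67% higher. The median log2 ratio was 0.20 and turned to -0.36 relative to the all-gene median. The exception was Derl3, a degradation factor, at 8.29 FPKM in SRSF2-/- and 0.593 FPKM in WT. The chaperone gene Calr stood at 470.1 FPKM in SRSF2-/- and 478 FPKM in WT. Hspa5 stood at 384 FPKM in SRSF2-/- and 201 FPKM in WT, and Sar1b, a vesicle coat GTPase, at 104 FPKM in SRSF2-/- and 52.6 FPKM in WT.

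Among 36 named genes outside clade A with at least 1000 FPKM in WT, the 5 nearest in log2 ratio to the antitrypsin sum were Ahsg, Alb, C3, Trf and Hp. Their ratios ran from 0.403 for Trf to 0.537 for Hp, beside 0.465 for the antitrypsin sum. The 5 nearest to the antichymotrypsin sum, at 0.546, were Pzp, Apoa1, Kng1, Hp and Rarres2, with ratios from 0.537 to 0.568. This likeness rests on 1 ratio between 2 libraries, by which the genes were also picked. Over 12 hepatocyte markers the median log2 ratio was -0.92, with 5 at least 2-fold lower and 1 higher, beside 2.95% and 19.2% of all genes. Relative to the all-gene median it was -1.47, with 9 lower and 1 higher, beside 6.66% and 5.67% of all genes. Before that centring, the antitrypsin sum at -1.10 lay near the median of these markers, and Serpina1e at -2.51 and Serpina3k at 1.40 lay to either side.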

How the data were processed

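Liver RNA was sequenced in 1 SRSF2-/- and 1 WT library. The members and gene lists were chosen with earlier results of these data known. Per the submitters' processing notes, Bowtie 0.12.2 and genome build mm9 were used. The sources used here do not give the counting program, its treatment of reads with several places, the annotation release or the use of strand. Per the file headers, the authors deposited whole read counts and FPKM values listed by RefSeq accession.

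Accessions were named without their version through RefSeq and GENCODE tables of GRCm38 (23419 of 26449 matched). Coordinates in that build belong to the printed sequences and not to the counts. Genes with at least 1 FPKM in either library were tested against a 2-fold size rule on log2(FPKM + 1), SRSF2-/- over WT. Folds in the text are plain FPKM ratios. Their exact 95% intervals (Clopper-Pearson) come from the reads, scaled by the FPKM worth of a read, which differed by a factor of 1.012 between the tables. For sums, the interval of the summed reads was scaled to the ratio of summed FPKM. That is approximate, because the copies differ in length. Levels have exact Poisson intervals. PCR reads without molecular identifiers are not independent molecules. With 1 library per genotype no test, SE or p-value was possible.

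The text names all members, the other clade A serpins with at least 1 FPKM, and of each further list the most abundant member and the 3 with the largest ratio, besides the 5 abundant genes nearest in ratio to each family sum. Genes said to be named after their values were seen come in addition. Of the marker lists only counts, sums and medians are given, besides genes that another list holds. The median log2 ratio was 0.92 for 6 macrophage, 1.10 for 8 stellate and fibroblast, 0.35 for 7 endothelial (-0.20 relative to the median of all genes tested), 1.16 for 6 bile duct, 5.75 for 7 exocrine pancreas, 3.37 for 5 skeletal muscle and -0.39 for 7 erythroid markers tested. Windows and coding identities came from GENCODE transcripts, aligned with Biopython 1.88. Software was matplotlib 3.10.9, scipy 1.17.1, pandas 2.3.3 and numpy 2.4.6 under Python 3.11.15, and the computation was tested on simulated counts.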

Additional observations from a re-analysis of the deposited data

How the results depend on the processing

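No paired analysis was possible because each genotype has 1 library, and none could be left out. The log2 ratios of the antitrypsin, antichymotrypsin and all-member sums were -1.10, -0.87 and -1.07. They became -1.66, -1.43 and -1.63 once the all-gene median was set to 0, -1.44, -1.21 and -1.41 after rescaling without the 20 most abundant genes, and -1.12, -0.96 and -1.09 in reads scaled by library size, where no transcript length enters. On the TPM scale the antitrypsin and all-member sums were -1.09 and -1.06. A pseudocount of 0.1 or 5 left these sums within their counting intervals. Taking the highest accession per gene could not change them, because each member has 1 accession. None of the 56 recomputed member ratios changed sign, and the 16 that left their counting interval were those under centring and under rescaling without the abundant genes. The 56 include the values by highest accession, which could not differ. They also include those on the TPM and read scales, which multiply each member's ratio by a nearly constant factor close to 1. Counts of members were 5 lower and 1 higher in the main analysis, 0 higher after centring, and 1 lower and 0 higher at 4-fold. Counts over all genes, 368 lower and 2395 higher, became 831 and 708 after centring, 687 and 5914 at 1.5-fold, and 94 and 344 at 4-fold. They were 232 and 786 with a pseudocount of 5, while a pseudocount of 0.1 gave 3797 higher and the rescaling without abundant genes 1208 higher. Depth does not limit the members, the least of which had 3334 reads, but the spread between animals is unknown and the division of shared reads among the antitrypsins is not given.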
